A study of Mus musculus with 123 samples.

Results

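The BCL2 family regulates the mitochondrial route to apoptosis, and 10 of its genes were followed here through single mouse embryos that had lost Oct4 or Sox2. The members were listed by symbol, and each was found once in the deposited UMI table, which makes 10 of 29022 genes. They are the survival genes Bcl2l1 and Mcl1, the BH3-only genes Bcl2l11, Bmf, Bik, Bid and Bad, and the effector genes Bak1, Bax and Bok.

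Proteins of this family meet at the outer mitochondrial membrane. Survival members hold the effectors in check, BH3-only members are switched on by stress or loss of signalling and either block the survival members or engage the effectors, and active effectors open the membrane so that cytochrome c leaves and caspases are activated. In the mouse blastocyst, dying cells are a normal sight in the inner cell mass (ICM), and loss of Mcl1 is known to be lethal at about the time of implantation.

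What the members share is the BH3 helix, a short stretch through which they bind one another. The coding sequence of its core is shown for the 6 members on which the results below turn most, each as 27 bases written 5′ to 3′ on the coding strand from the principal transcript in mm10 (GRCm38, GENCODE vM21). Capitals mark the codons of the small residue and the aspartate that follows it at the centre of the core.
Bid, chr6:120897289-120897315, minus strand: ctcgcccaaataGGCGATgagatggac
Bcl2l11, chr2:128147150-128147176, plus strand: ctgcggcggatcGGAGACgagttcaac
Bmf, chr2:118545100-118545126, minus strand: cttcagtgtattGCAGACcagttccat
Bok, in 2 exons between chr1:93686657-93689170, plus strand: ctgctgcgcttgGGAGATgagctggag
Mcl1, chr3:95659436-95659462, plus strand: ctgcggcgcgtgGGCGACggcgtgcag
Bcl2l1, chr2:152829697-152829723, minus strand: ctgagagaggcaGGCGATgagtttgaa
The stretch was found by searching each translated coding sequence for a leucine, any 3 residues, a glycine, alanine or serine, and an aspartate, and all 10 members held exactly 1 match. The match lay in exon 1 of 3 in Mcl1, exon 2 of 3 in Bcl2l1, exon 3 of 4 in Bcl2l11, exon 4 of 6 in Bid and exon 4 of 5 in Bmf. In Bok it began in exon 2 of 5 and ran into the next exon.

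The study asked what the transcription factors Oct4 (encoded by Pou5f1) and Sox2 control while the ICM forms and matures, with 1 library from each embryo (48 Ctrl, 48 KO and 27 MWT) of 2 mouse lines, all labelled B6C3F1. KO embryos had no working copy of the gene, since the paternal allele was a null one marked by a fluorescent protein (Pou5f1 mKO2 or Sox2 EGFP) and the maternal floxed allele was deleted by Zp3-Cre, which is active in the growing oocyte. Ctrl embryos came from the same kind of mothers, so they also lacked the maternal product, but inherited a functional paternal allele. MWT embryos had mothers whose gene was intact. The stages were the whole morula (E2.75), the early ICM (E3.75) and, at E4.5, the late ICM, with 8 embryos in each Ctrl and KO group. The MWT embryos of the Oct4 line were 7 morulae, 5 early ICMs and 8 late ICMs, and those of the Sox2 line were 7 early ICMs. The ICMs were isolated by immunosurgery from blastocysts cultured with 1 µM of the MEK inhibitor PD0325901, so developmental stage, culture and isolation cannot be told apart between morula and ICM. The labels give this treatment for every ICM group except the 5 Oct4 MWT early ICMs, which carry none. The labels of both Oct4 MWT ICM groups also disagree on stage, since the tissue label gives morula for the early and early ICM for the late group, and the stage in the sample title was used. Sox2 ran from 131 to 279.5 CPM in the 5 Oct4 MWT early ICMs. It ran from 81.8 to 179 CPM in Ctrl early ICMs and from 11.2 to 44.15 CPM in Ctrl morulae of this line.

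Libraries held 525755 to 1344035 UMIs, and the median total was 1030464 in morulae, 889715 in early ICMs and 744267 in late ICMs, so a level of 1 CPM (UMIs scaled to a common library total) stands for about 1 molecule counted in an embryo. The targeted genes followed the labels, since in each Oct4-KO group every embryo had less Pou5f1 than any Ctrl embryo of its stage, and in each Sox2-KO group every embryo was below the Ctrl median of Sox2. All CPM values are after TMM scaling, a correction for differences in RNA composition between libraries. Because counts come from the 3′ ends of transcripts, splice forms of a gene with opposed functions, as known for Bcl2l1 and Mcl1, are summed. In such bulk samples fewer cells of a type and less RNA per cell cannot be told apart.

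Of the 10 members, 9 passed the detection filter, which asks for a UMI in 0.5 or more of the embryos at 1 or more stages, and were tested. The exception was Bik, with 29 UMIs spread over 17 embryos. A gene was called changed where edgeR's quasi-likelihood test gave an adjusted p below 0.05, adjusted over all 14053 genes tested, and the log2 fold change reached 1 in either direction.

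Over the 16 groups the members differed widely in how far their levels moved. The mean of Mcl1 stayed between 342 and 508 CPM, a 1.49-fold range, and that of Bad between 45.7 and 78.0 CPM, a 1.71-fold range. Bax ranged 2.30-fold (15.1 to 34.7 CPM) and Bcl2l1 3.45-fold (8.12 to 28.0 CPM). The BH3-only genes other than Bad moved more: Bmf 6.51-fold (1.57 to 10.2 CPM), Bcl2l11 9.93-fold (4.80 to 47.7 CPM) and Bid 23.4-fold (2.06 to 48.3 CPM). The effector Bok ranged 11.2-fold, from 25.4 to 285 CPM. Group means of the effector Bak1 ran from 0.118 to 2.96 CPM, near the counting limit throughout, with 124 UMIs in 64 embryos, and its lowest mean rests on 1 UMI, so no fold range is given for it.

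**Figure D1:**
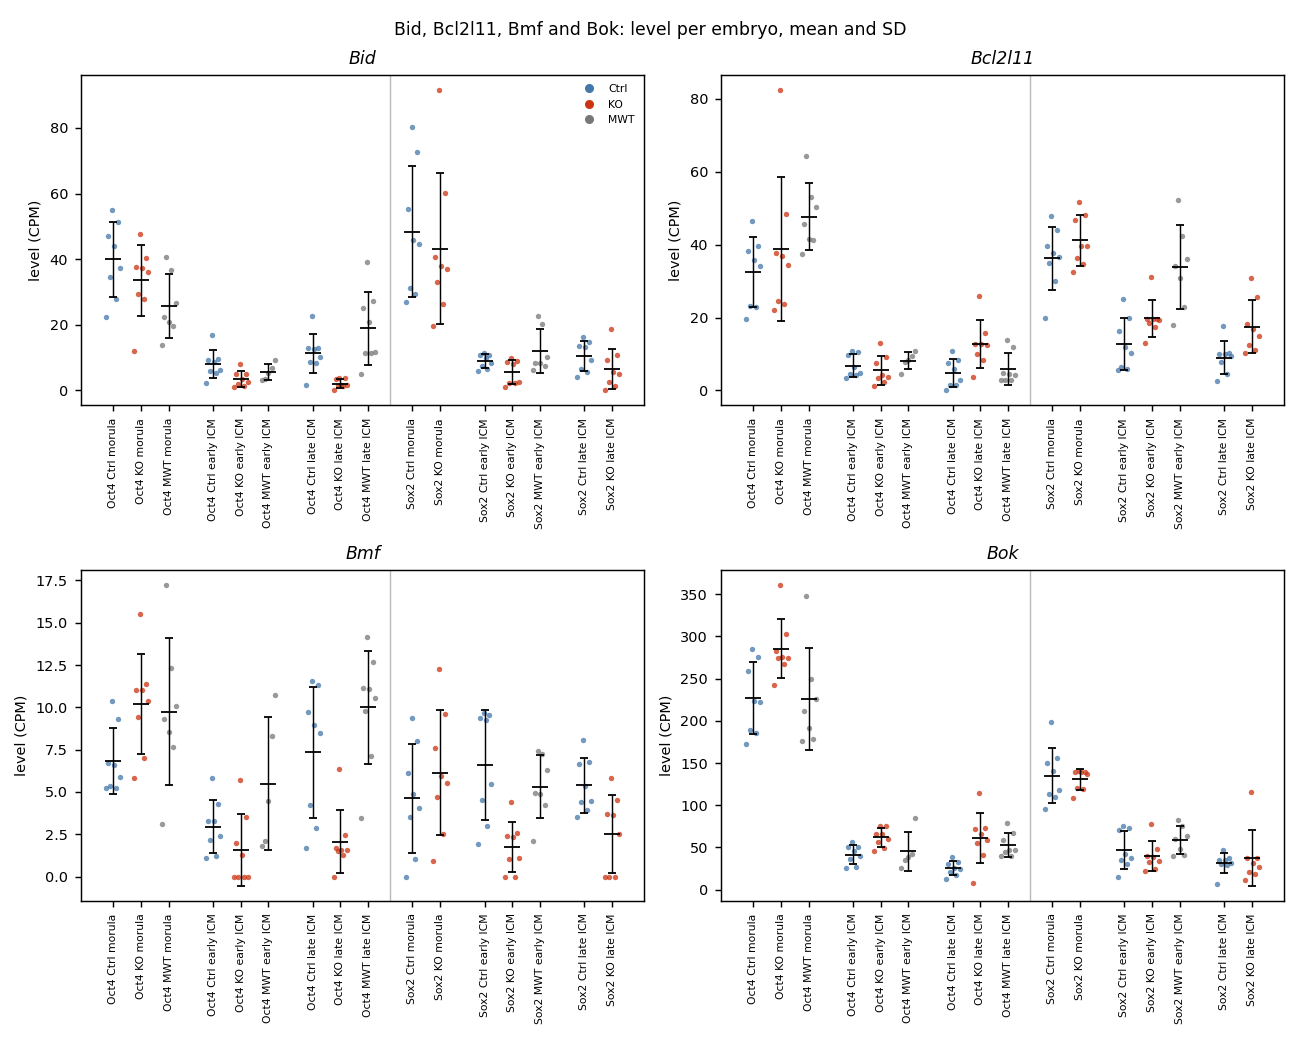
Level in CPM (linear axis) of Bid, Bcl2l11, Bmf and Bok in each embryo, by line, genotype and stage. Each dot is 1 embryo, and the bars give the mean and SD. In both lines the group means of the morulae are highest for Bid, Bcl2l11 and Bok. For Bcl2l11 the Sox2 MWT early ICMs (18.03 to 52.3 CPM) overlap the morulae of their line. The Oct4-KO late ICMs lie low for Bid and Bmf (means of 2.06 and 2.06 CPM).

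In Ctrl embryos, Bid, Bcl2l11 and Bok were several-fold lower in early ICMs than in morulae, in both lines. In the Oct4 line 6 of the 9 members tested were called, 1 higher and 5 lower, where 29.0% of all genes tested were called (14.1% higher and 14.9% lower). In the Sox2 line 4 of 9 were called, 1 higher and 3 lower, where 31.9% of all genes were (17.2% higher and 14.7% lower). Bak1 was the member called higher in both lines. The early ICM groups of this step also serve in the next one. Cell type markers moved with this step. Of 10 epiblast markers 9 were called higher in the Oct4 and 6 in the Sox2 line. Of 8 tested primitive endoderm markers 4 and 5 were, with Dab2 called lower in both. Of 10 trophectoderm markers 6 were called lower in the Sox2 line, while in the Oct4 line 1 was called lower (Krt7) and 1 higher (Elf5). The part of these markers in the members' values was not tested.

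Bok, an effector that can act without the BH3-only proteins that Bax and Bak1 answer to, had 173, 223 and 285 CPM (lowest, median and highest of 8) in Oct4 Ctrl morulae and 26.2, 42.5 and 56.8 CPM in early ICMs. In the Sox2 line it had 95.9, 130 and 198 CPM in morulae and 15.3, 40.1 and 74.9 CPM in early ICMs. Morulae and early ICMs did not overlap in either line. Bok fell by 2.47 ± 0.25 on the log2 scale (SE; adjusted p 1.57e-14) in the Oct4 line and by 1.52 ± 0.24 (adjusted p 1e-07) in the Sox2 line.

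Bid, which links death receptors to mitochondria once caspase 8 has cleaved it, had 22.5, 40.7 and 55.0 CPM in Oct4 Ctrl morulae and 2.17, 7.44 and 16.8 CPM in early ICMs. In Sox2 Ctrl morulae the values were 27.1, 45.2 and 80.3 CPM, and in early ICMs 5.85, 9.17 and 11.3 CPM. Here too no early ICM reached the lowest morula. The fall was 5.54-fold for Bok and 4.96-fold for Bid in the Oct4 line, and 5.36-fold for Bid in the Sox2 line (adjusted p 5.25e-09 and 2.53e-10 for Bid).

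Bcl2l11 encodes Bim, a BH3-only protein that binds all survival members and is kept low by growth factor signalling. It had 19.6, 35.1 and 46.4 CPM in Oct4 Ctrl morulae and 3.28, 5.67 and 10.9 CPM in early ICMs, which did not overlap. In the Sox2 line the values were 19.8, 37.1 and 47.8 CPM in morulae and 5.69, 11.2 and 24.95 CPM in early ICMs, which did. Bcl2l11 fell by 2.25 ± 0.31 (adjusted p 1.6e-09) in the Oct4 line and by 1.51 ± 0.28 (adjusted p 2.28e-06) in the Sox2 line.

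Bcl2l1, the gene of the survival protein Bcl-xL, was called in the Oct4 line alone. Its levels there were 12.6, 22.4 and 25.4 CPM in morulae and 4.37, 6.32 and 21.5 CPM in early ICMs, lower by 1.20 ± 0.29 on the log2 scale (adjusted p 0.000277). In the Sox2 line the morulae had 9.38, 11.4 and 20.9 CPM and the early ICMs 9.85, 13.3 and 26.9 CPM, a log2 fold change of 0.26 ± 0.28 (adjusted p 0.438). The difference between the lines was not tested.

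The other changes at this step rested on few molecules. Bmf, a BH3-only gene whose protein is released from the actomyosin cytoskeleton, was lower by 1.19 ± 0.46 in the Oct4 line (adjusted p 0.0261, 21 UMIs in early ICMs against 53 in morulae) and stood at 0.46 ± 0.43 in the Sox2 line. The Oct4 call was lost with counts thinned to the lowest total (adjusted p 0.26) and without the detection filter (0.0595). Bak1, the second of the classical effectors beside Bax, rose on 16 UMIs in early ICMs against 4 in morulae in the Oct4 line and on 9 against 1 in the Sox2 line. In the Oct4 line the Bak1 call was lost with DESeq2 (adjusted p 0.0675), with thinned counts (0.12) and without the filter (0.055). Mcl1 (0.06 ± 0.10 in the Oct4 line, -0.10 ± 0.10 in the Sox2 line), Bad (-0.20 ± 0.16 and -0.01 ± 0.16) and Bax (0.30 ± 0.24 and 0.37 ± 0.24) were not called in either line.

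From early to late ICM, 2 of 9 members were called in the Oct4 line, both higher, beside 15.6% of all genes (9.52% higher). Bcl2l1 rose by 1.29 ± 0.29 (adjusted p 0.000271), from 4.37, 6.32 and 21.5 CPM to 6.47, 20.6 and 50.3 CPM, and all 8 late ICMs lay above the early median. Bmf rose by 1.29 ± 0.48 (adjusted p 0.0278), from 21 to 40 UMIs, a call that was lost with thinned counts (adjusted p 0.102) and without the detection filter (0.0713). In the Sox2 line no member was called, beside 2.9% of all genes, 1 member had an unadjusted p under 0.05 (Bok, -0.60 ± 0.27, adjusted p 0.171), and DESeq2 called none. Bok gave a value on the same side in the Oct4 line, -0.68 ± 0.29 (adjusted p 0.061). In the Oct4 line 4 of 10 epiblast, 2 of 10 trophectoderm and 4 of 8 tested primitive endoderm markers were also called higher at this step, with Gata6 called lower, and their part in the rises of Bcl2l1 and Bmf was not tested.

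**Figure D2:**
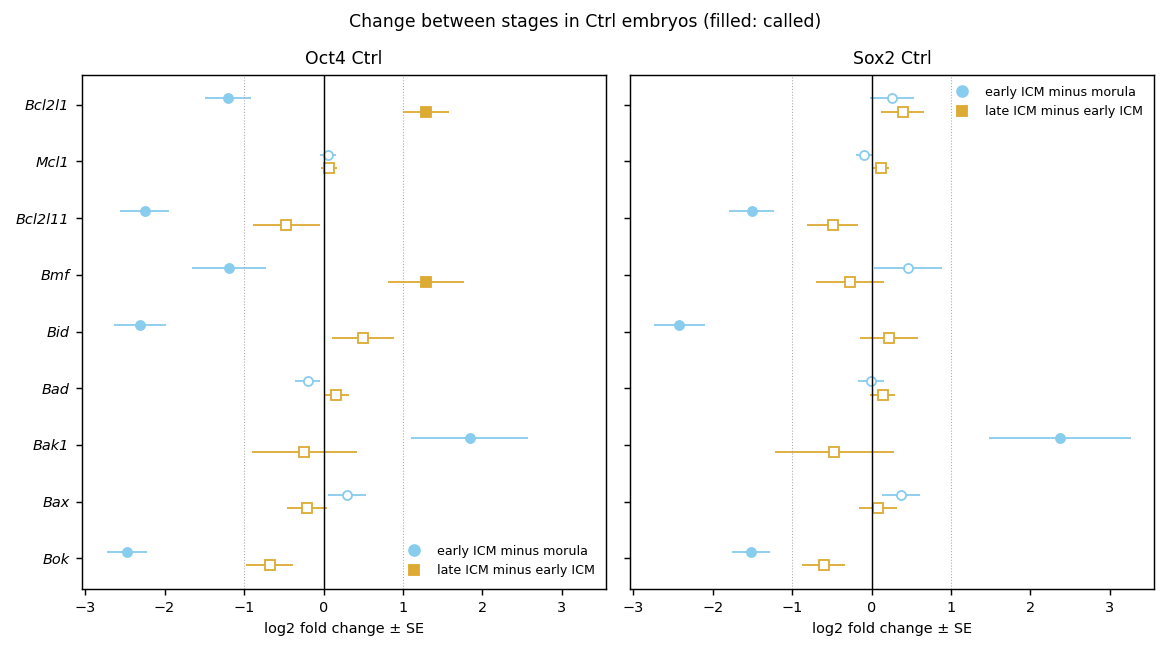
Log2 fold change ± SE of the 9 tested members between stages in Ctrl embryos of the Oct4 line (left) and the Sox2 line (right). Filled symbols are called, and dotted lines mark a log2 fold change of 1 in either direction. Bid, Bcl2l11 and Bok lie between -2.47 and -1.51 from morula to early ICM in both lines.

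After loss of Oct4, members were called in late ICMs, 4 of 9, and in neither earlier stage. Bcl2l11 and Bok rose and Bid and Bmf fell. The share of all genes called was 0.804% in morulae, 10.9% in early ICMs and 18.1% in late ICMs (9.25% higher and 8.85% lower).

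In Oct4-KO morulae no member was called, by edgeR or by DESeq2, and only Mcl1 had an unadjusted p under 0.05 (0.24 ± 0.10, adjusted p 0.268). Bok was above the Ctrl median in 8 of 8 KO morulae, with 243, 275 and 361 CPM against 173, 223 and 285 CPM, a log2 fold change of 0.34 ± 0.22 (adjusted p 0.591). In early ICMs edgeR again called none, and 3 members had an unadjusted p under 0.05, Bid, Mcl1 and Bok.

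Bid came nearest to the threshold in Oct4-KO early ICMs. It had 1.03, 2.93 and 8.19 CPM (24 UMIs in all) against 2.17, 7.44 and 16.8 CPM (57 UMIs) in Ctrl, and 7 of 8 KO embryos were below the Ctrl median. Its log2 fold change was -1.17 ± 0.45 with an adjusted p of 0.0512, and it was called by DESeq2 (adjusted p 0.0339), with scaling by total counts (0.0366) and in the fit with the MWT embryos. In that comparison Bok had 0.58 ± 0.26 (adjusted p 0.0974), above the Ctrl median in 8 of 8, and Mcl1 -0.26 ± 0.10 (adjusted p 0.0631).

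In late ICMs the fall of Bid was the largest change among the 9 tested members upon loss of Oct4. In Ctrl late ICMs it had 1.70, 11.3 and 22.6 CPM, and in Oct4-KO late ICMs 0, 1.59 and 3.746 CPM. All 8 KO embryos were below the Ctrl median, and the ranges overlapped through 1 Ctrl embryo at 1.70 CPM. The groups held 12 UMIs in KO and 61 in Ctrl, a depth-corrected ratio of 17.5% (95% exact Poisson interval 8.58% to 32.9%, which covers counting error only). The log2 fold change was -2.34 ± 0.51 (adjusted p 0.000127), 5.08-fold lower.

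Bmf fell as well. The 8 Ctrl late ICMs had 1.70, 8.74 and 11.6 CPM and the 8 Oct4-KO late ICMs 0, 1.59 and 6.36 CPM, all below the Ctrl median. The UMI sums of 12 and 40 give a ratio of 26.7% (12.8% to 51.9%), and the log2 fold change was -1.74 ± 0.52 (adjusted p 0.0062).

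The other called BH3-only gene, Bcl2l11, went the opposite way. It had 0, 4.31 and 10.8 CPM in Ctrl (26 UMIs) and 3.746, 12.5 and 26.0 CPM in Oct4-KO late ICMs (71 UMIs), and 7 of 8 KO embryos exceeded the Ctrl median. The log2 fold change was 1.37 ± 0.39 (adjusted p 0.00406), 2.58-fold higher. The level in the KO late ICMs was still below that of any morula group, whose lowest mean was 32.5 CPM.

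Bok rose 2.41-fold, by 1.27 ± 0.29 (adjusted p 0.000227). Ctrl late ICMs had 13.0, 24.9 and 38.2 CPM. In KO the lowest embryo had 8.41 CPM, below every Ctrl embryo, and the other 7 had 41.2 to 114 CPM, above every Ctrl embryo. The low one, numbered 1-2, also had the highest summed trophectoderm markers of its group (3325 CPM) and the lowest epiblast markers (551 CPM).

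Mcl1 and Bad passed the adjusted p without reaching the fold minimum, so that 6 of 9 members were past adjusted p alone, where 31.7% of all genes were. Mcl1 had 413, 458 and 611 CPM in Ctrl and 272, 377 and 421 CPM in Oct4-KO late ICMs, -0.38 ± 0.10 (adjusted p 0.00236), with all 8 KO embryos below the Ctrl median. Bad, whose protein is held inactive by 14-3-3 proteins when survival kinases are active, had 46.2, 55.9 and 75.0 CPM against 57.1, 81.2 and 95.8 CPM in KO, 0.50 ± 0.16 (adjusted p 0.0128), with all 8 above the Ctrl median. Bcl2l1 (0.35 ± 0.27), Bax (0.33 ± 0.26) and Bak1 (-0.57 ± 0.75, on 7 and 10 UMIs) were not called. The median log2 fold change of the 9 members was 0.33, and that of all genes -0.01.

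The 4 calls in Oct4-KO late ICMs held under each of the 6 other processing settings and when any of the 16 embryos was left out. The late ICM embryos carry numbers that begin with 1 or 2, and within these sets the differences between KO and Ctrl in log2(mean CPM + 1) were -2.19 and -1.56 for Bid, -1.93 and -1.09 for Bmf, 1.60 and 0.78 for Bcl2l11 and 1.43 and 0.97 for Bok.

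Cell type markers moved with these groups. The summed level of 10 trophectoderm markers (Cdx2, Gata3, Eomes and Krt8 among them) was 226 to 1018 CPM in Ctrl and 1270 to 3325 CPM in Oct4-KO late ICMs, and that of 10 epiblast markers 3092 to 4302 CPM in Ctrl and 551 to 1184 CPM in KO. The sum of 10 primitive endoderm markers was 246 to 1213 CPM in Ctrl and 898 to 1653 CPM in KO, while 2 of the 8 tested (Gata6 and Dab2) were called higher and 4 lower, Sox17 and Gata4 among them. The part of these shifts in the members' values was not tested.

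**Figure D3:**
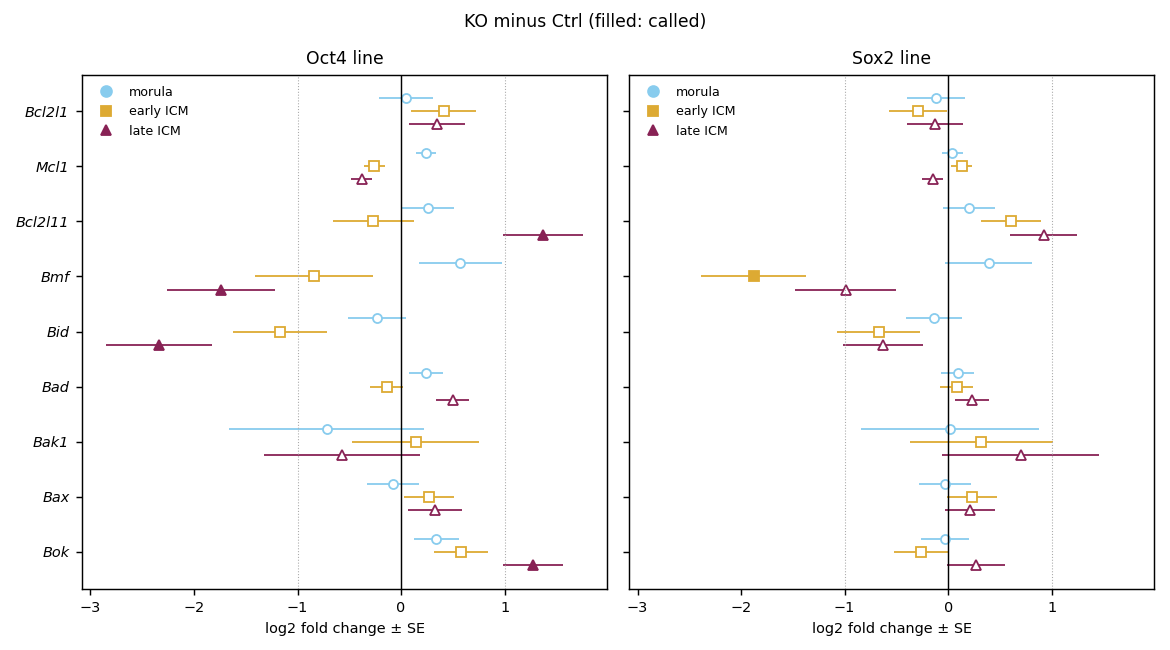
Log2 fold change ± SE, KO minus Ctrl, of the 9 tested members at 3 stages in the Oct4 line (left) and the Sox2 line (right). Filled symbols are called. In the Oct4 line the late ICM values of Bid (-2.34), Bmf (-1.74), Bok (1.27) and Bcl2l11 (1.37) are filled, and in the Sox2 line that of Bmf in early ICMs (-1.88).

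After loss of Sox2, 1 member was called over the 3 stages. In morulae edgeR and DESeq2 called none and no member had an unadjusted p under 0.05, beside 0.00712% of all genes called. In early ICMs 1 of 9 was called, beside 3.27% of all genes (1.69% lower). This was Bmf, with 1.90, 7.35 and 9.69 CPM in Ctrl and 0, 1.71 and 4.38 CPM in Sox2-KO early ICMs, all 8 below the Ctrl median (12 and 49 UMIs, a ratio of 24.6%, interval 11.9% to 47.0%). Its log2 fold change was -1.88 ± 0.51 (adjusted p 0.0106), and the call was lost with thinned counts (adjusted p 0.0778), with a replicate block on the embryo numbers that Ctrl and KO share (-1.73, adjusted p 0.239) and with those embryos fitted alone without a block (-1.68, adjusted p 0.251).

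In Sox2-KO late ICMs no member was called, beside 6.95% of all genes, while 2 had an unadjusted p under 0.05, Bcl2l11 and Bmf, and DESeq2 called none. Bcl2l11 had 2.68, 9.66 and 17.6 CPM in Ctrl and 10.2, 15.9 and 30.7 CPM in KO, with all 8 KO embryos above the Ctrl median. Its log2 fold change was 0.92 ± 0.32 with an adjusted p of 0.0391, short of the fold minimum, where 13.8% of all genes were past adjusted p. The adjusted p rose to 0.141 with thinned counts and to 0.112 without KO embryo 2-10. In these ICMs 6 of 10 epiblast markers were called lower (sums of 3014 to 4557 CPM in Ctrl and 1606 to 2677 CPM in KO) and 3 of 10 trophectoderm markers higher, and their part was not tested. Bmf had 3.50, 4.90 and 8.07 CPM against 0, 3.08 and 5.80 CPM, -0.99 ± 0.49 (adjusted p 0.184).

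Bid had -0.67 ± 0.40 (adjusted p 0.363) in Sox2-KO early ICMs and -0.63 ± 0.39 (adjusted p 0.313) in late ICMs, with 7 of 8 KO embryos below the Ctrl median at each stage. Within the late ICM sets whose numbers begin with 1 and 2, the differences in log2(mean CPM + 1) were unequal, -0.05 and -1.48 for Bid, -0.52 and 0.21 for Mcl1, -0.56 and -1.23 for Bmf and 0.57 and 1.31 for Bcl2l11. Bok gave -0.26 ± 0.26 and 0.27 ± 0.28 and Mcl1 0.13 ± 0.10 and -0.15 ± 0.10 at these stages, none of them called. The Bok value in late ICMs was -0.26 without KO embryo 1-5, which had 116.0 CPM against 12.1 to 37.4 CPM in the others. The summed trophectoderm markers were 121 to 491 CPM in Ctrl and 492 to 2118 CPM in Sox2-KO early ICMs, and the epiblast markers 1934 to 4255 and 1640 to 2260 CPM, so these moved with the fall of Bmf. Their part in it was not tested.

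Whether the effects differ between the lines was tested as the difference itself. In late ICMs the Oct4 effect minus the Sox2 effect was -1.71 ± 0.66 for Bid (adjusted p 0.0897) and 1.00 ± 0.40 for Bok (adjusted p 0.105), and no member was called (6.3% of all genes were). The 95% interval of the difference was -3.0 to -0.42 for Bid and 0.22 to 1.78 for Bok before adjustment. In early ICMs the difference was -0.39 ± 0.14 for Mcl1 (adjusted p 0.0797) and 0.85 ± 0.37 for Bok (adjusted p 0.146), and again no member was called, beside 5.52% of all genes. In morulae none was called (0.356% of all genes), and no member had an unadjusted p under 0.05. DESeq2 called no member in these 3 tests either.

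Between stages, the difference in the Oct4 effect on Mcl1 passed the adjusted p but was not called. The effect was 0.24 ± 0.10 in morulae and -0.26 ± 0.10 in early ICMs. The difference of -0.50 ± 0.14 (adjusted p 0.0262, and 0.112 with thinned counts) misses the fold minimum of the call. Of all genes 3.29% were called in this test and 4.84% passed at adjusted p alone. The Oct4 effect on Bcl2l11 went from -0.27 ± 0.39 in early to 1.37 ± 0.39 in late ICMs, a difference of 1.63 ± 0.55 with an adjusted p of 0.0719 in edgeR, where 3.11% of all genes were called, and 0.0443 in DESeq2. The Sox2 effect on Bmf differed by -2.26 ± 0.66 between morulae and early ICMs (adjusted p 0.0667 in edgeR and 0.0242 in DESeq2), where edgeR called 0.882% of all genes. Between early and late ICMs the Sox2 effect was called to differ for 0.0427% of all genes and for no member.

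**Figure D4:**
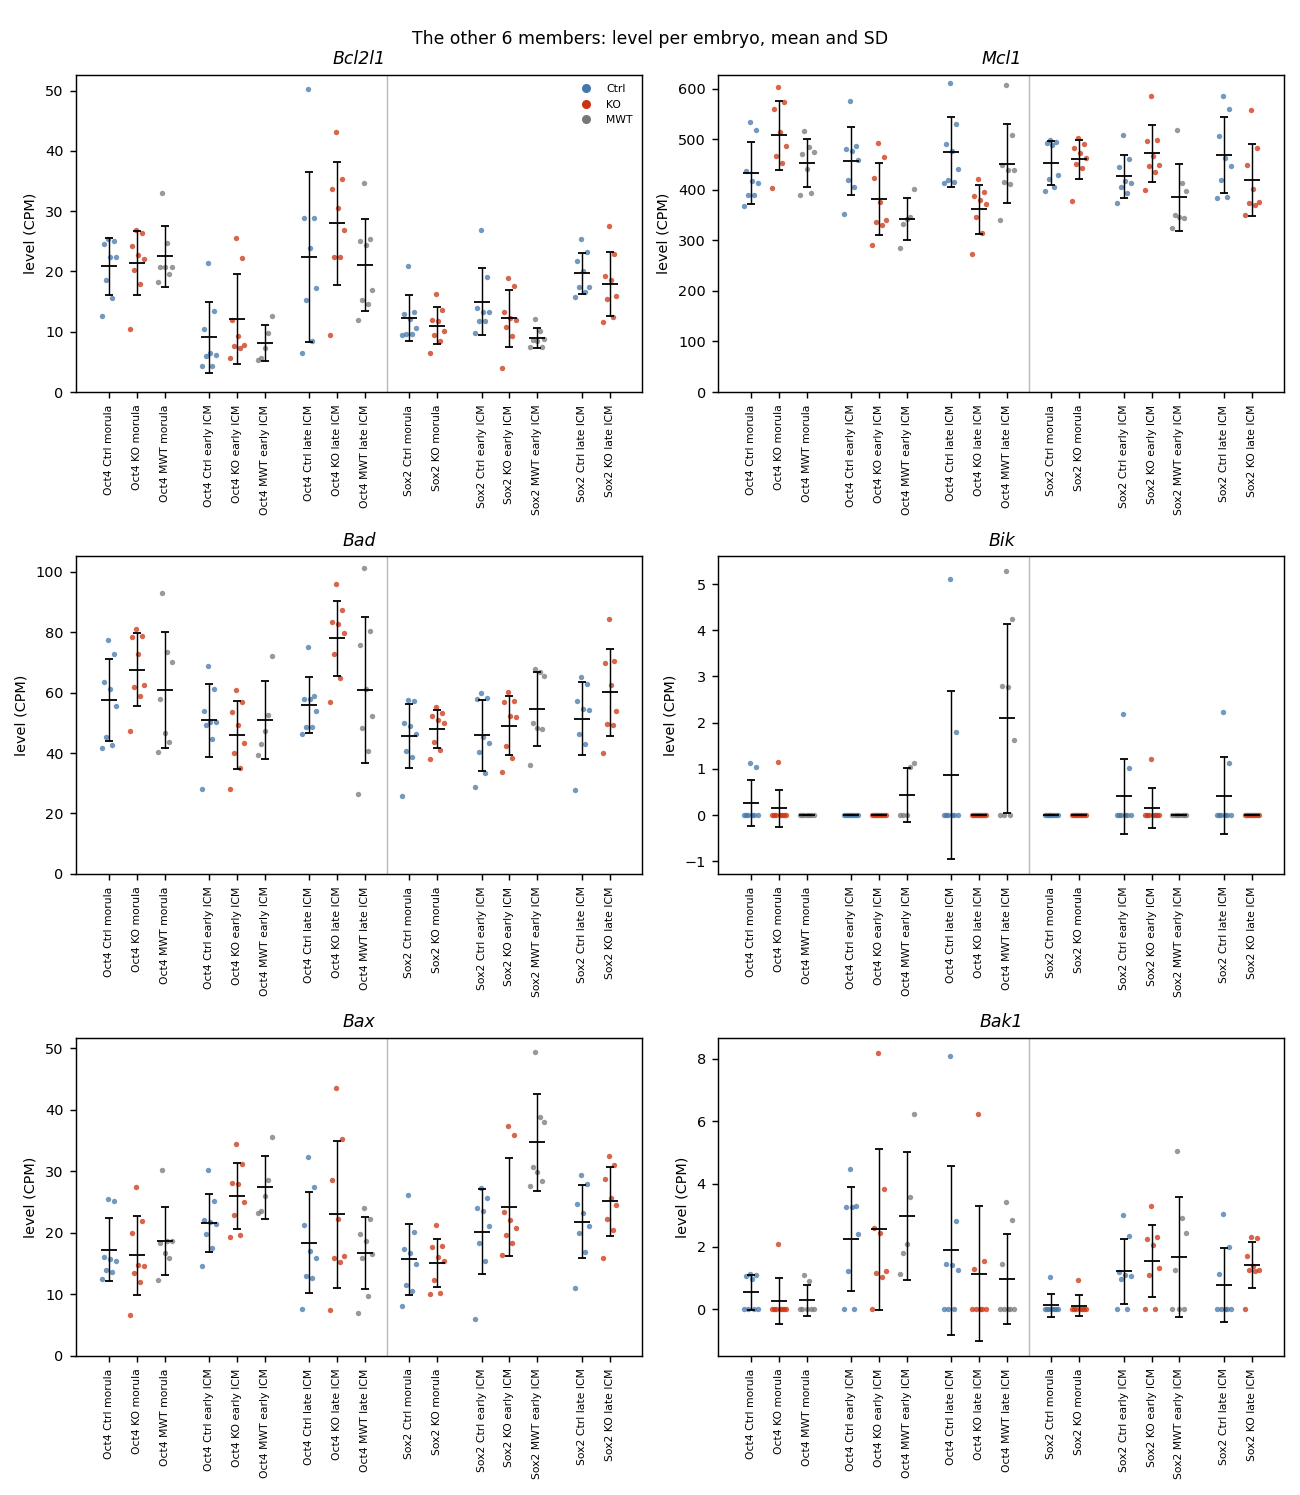
Level in CPM (linear axes) of the other 6 members in each embryo, by line, genotype and stage, with mean and SD. The group means of Mcl1 and Bad span 1.49-fold and 1.71-fold, and most embryos have no UMI of Bik.

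Bik and Bak1 were sparse. Bik, a BH3-only gene, was at 0 in every embryo of 8 of the 16 groups, which allows at most 0.339 to 0.528 CPM per group (3 counts over the group's UMIs). Its highest mean was 2.09 ± 2.04 CPM (SD, n = 8) in Oct4 MWT late ICMs, with 13 UMIs in 5 of 8 embryos. Oct4 Ctrl late ICMs had 4 Bik UMIs in 2 embryos, and Oct4-KO late ICMs had none. Bak1 had 1 UMI in each of the 2 Sox2-line morula groups, and 9 to 17 UMIs in each early ICM group.

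MWT embryos were compared with Ctrl embryos to see whether the maternal deletion, which Ctrl embryos carry, moves the members. Of 9 members tested among 13923 genes, none was called in Oct4 morulae (0.0646% of all genes) or early ICMs (0.373%), by edgeR or DESeq2, with 2 and 1 members at an unadjusted p under 0.05. These were Bcl2l11 (0.55 ± 0.25) and Bid (-0.64 ± 0.30) in morulae and Mcl1 in early ICMs. The 5 MWT early ICMs had 285, 333, 342, 346 and 401 CPM of Mcl1, all below the median of 468 CPM of the Ctrl embryos, which are labelled as treated with PD0325901, and its log2 fold change was -0.42 ± 0.12 (adjusted p 0.0659). In Oct4 late ICMs Bok was called, beside 0.797% of all genes (0.273% higher), and in Sox2 early ICMs Bcl2l11, beside 2.58% (1.17% higher).

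Bok had 39.7, 47.0 and 79.3 CPM in Oct4 MWT late ICMs, above all 8 Ctrl late ICMs (13.0, 24.9 and 38.2 CPM). The log2 fold change was 1.06 ± 0.28 (adjusted p 0.0275). The mean was thus 53.0 CPM in MWT, 25.4 CPM in Ctrl and 61.1 CPM in KO late ICMs of this line, and both comparisons share the Ctrl group. By their tissue label these MWT embryos are early ICMs, in which Ctrl embryos had 41.4 CPM of Bok, so by the labels maternal genotype and stage cannot be told apart in this call. Their Sox2 levels of 208 to 621 CPM were all above the 81.8 to 179 CPM of Ctrl early ICMs. These levels overlapped the 131 to 279.5 CPM of Oct4 MWT early ICMs and the 136 to 483 CPM of Ctrl late ICMs. Bcl2l1 averaged 21.1 ± 7.59 CPM in the MWT late ICMs, against 9.10 ± 5.89 CPM in Ctrl early and 22.4 ± 14.1 CPM in Ctrl late ICMs (SD, n = 8 each). Of 8 tested primitive endoderm markers 3 were called lower with it (sums of 102 to 434 CPM in MWT against 246 to 1213 CPM in Ctrl), and their part was not tested. Bid stood at 18.96 ± 11.2, 11.3 ± 5.90 and 2.06 ± 1.38 CPM in MWT, Ctrl and KO, and its MWT value of 0.72 ± 0.36 was not called (adjusted p 0.349).

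Bcl2l11 had 18.03, 34.0 and 52.3 CPM in the 7 Sox2 MWT early ICMs and 5.69, 11.2 and 24.95 CPM in the 8 Ctrl embryos, 1.39 ± 0.29 on the log2 scale (adjusted p 0.000617). KO embryos of that stage had 13.1, 19.4 and 31.2 CPM, so Ctrl was the lowest of the 3 genotypes. Bax, the effector that moves from cytosol to mitochondria, had 27.5, 30.8 and 49.4 CPM in the MWT embryos, all above the Ctrl range of 5.97 to 27.4 CPM. Its log2 fold change of 0.76 ± 0.23 passed the adjusted p (0.0293), as 6.33% of all genes did, but not the fold minimum, and the adjusted p rose to 0.0934 with thinned counts. Bcl2l1 had -0.72 ± 0.30 (adjusted p 0.136), with all 7 MWT embryos below the Ctrl median. The summed primitive endoderm markers were 986 to 1373 CPM in MWT against 222 to 883 CPM in Ctrl, though 1 of 8 tested was called (Gata6, higher) and their median log2 fold change was 0.09. Of 10 epiblast markers 2 were called lower, and of 10 trophectoderm markers 1 higher (Cdx2). The part of these markers was not tested.

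**Figure D5:**
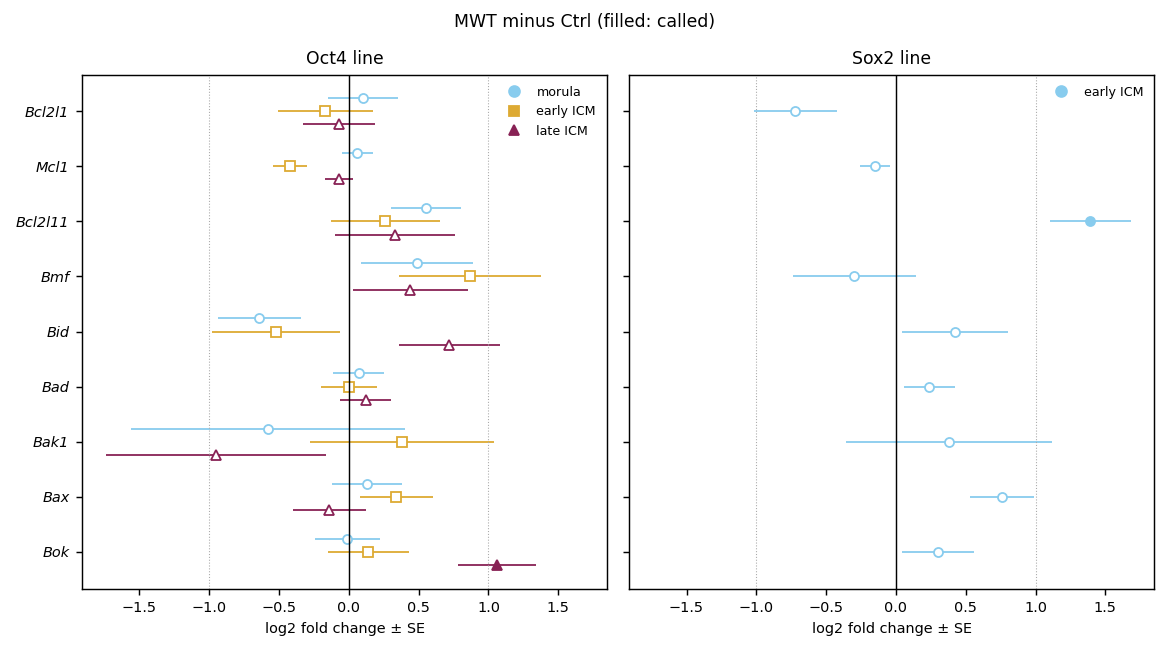
Log2 fold change ± SE, MWT minus Ctrl, of the 9 tested members in the Oct4 line (left) and in Sox2 early ICMs (right). Filled symbols are called: Bok in Oct4 late ICMs (1.06) and Bcl2l11 in Sox2 early ICMs (1.39).

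Genes that act with the members were read from 4 lists. Of 18 other family genes 12 were tested, and without Oct4 there were 3 calls at the early ICM stage, 2 of them higher, and 5 at the late stage, 2 of them higher, where 10.9% and 18.1% of all genes were called. Pmaip1, the gene of the Mcl1-binding BH3-only protein Noxa, rose by 1.98 ± 0.34 in early (adjusted p 3.42e-06) and 2.50 ± 0.41 in late ICMs (adjusted p 4.3e-07). Bcl2l14 fell by 2.54 ± 0.27 in early ICMs (adjusted p 1.35e-12). Hrk, another BH3-only gene, had 0 UMIs in Oct4-KO late ICMs against a mean of 4.23 CPM in Ctrl, and its log2 fold change was -2.16 ± 0.66 without Sox2 at the same stage (adjusted p 0.0184).

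Among 23 genes of the apoptosome and caspases, Cyct (testis cytochrome c, -1.08 ± 0.36, adjusted p 0.0206) was lower in Oct4-KO early ICMs, and 2 were higher in late ICMs, Casp6 and Htra2 (1.18 ± 0.21, adjusted p 2.14e-06). None was called after loss of Sox2. Of 8 tested genes of the death receptor pathway, in which Bid is the link to mitochondria, 5 were called in Oct4-KO late ICMs, beside 18.1% of all genes. In Sox2-KO late ICMs 1 was called, Pidd1 (1.06 ± 0.35, adjusted p 0.0313), beside 6.95% of all genes. Without Oct4, Tnfrsf1a fell by 2.61 ± 0.60 (adjusted p 0.000275) and Cflar, the caspase 8 inhibitor, rose by 2.03 ± 0.58 (adjusted p 0.004). Among 14 regulators and partners, 3 were called in Oct4-KO early and 2 in late ICMs, and 1 in Sox2-KO early and 2 in late ICMs, beside 10.9%, 18.1%, 3.27% and 6.95% of all genes. Ddit3, the gene of the stress factor CHOP, rose in Oct4-KO early ICMs (1.12 ± 0.36, adjusted p 0.0165). Usp9x, a deubiquitinase known to stabilise the Mcl1 protein and named here after its values were seen, fell without Oct4 by 1.04 ± 0.17 at the early stage (adjusted p 7.95e-07) and by 1.46 ± 0.17 at the late stage (1.35e-11). Without Sox2 its late stage value was -1.05 ± 0.17 (adjusted p 1.34e-06), also called lower. Trp53, the gene of p53, which activates transcription of several members, fell in the ICMs of both KO lines. Its log2 fold change was -1.73 ± 0.27 at the early and -2.66 ± 0.32 at the late stage without Oct4, and -1.09 ± 0.25 and -1.14 ± 0.27 without Sox2 (adjusted p from 5.29e-11 to 0.00218). The median log2 fold change of these 4 lists in Oct4-KO late ICMs was 0.48, 0.17, -0.11 and -0.09 in the order given, against -0.01 for all genes.

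For the 4 members called after loss of a factor, genes with a closely similar pattern of mean log2(CPM + 1) over the 16 groups were taken from the 3 most similar of the 7934 (for Bmf 7935) genes whose highest group mean was at least 20 CPM. They were Coprs (Pearson r 0.949) and Kbtbd8 (0.943) for Bid, Gm45441 (0.980) and Fancd2os (0.979) for Bok, Pqlc1 (0.9499), Txnrd2 (0.938) and Szrd1 (0.922) for Bcl2l11, and Zbtb43 (0.909), L3mbtl2 (0.895) and Ubtf (0.889) for Bmf. Group means share line, stage and depth, so these values only describe likeness.

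RefSeq promoters (250 bases before to 50 after each start) were at hand for 9 members, 15 promoters in all, and were searched on both strands. The octamer ATGCAAAT, the letters Oct4 binds best, was in none of them and in 1.74% of 32851 promoters. The shorter CATTGT, the core of SOX sites, was in the promoters of Bcl2l1 and Bid, 2 of 15, and in 12.6% of all promoters. The composite of both, with 1 free base between them, was in none of the 32851, so its absence does not set the members apart. The paper found most of its significantly changed open chromatin regions distal to transcription start sites, and such regions were not searched here.

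Genomic positions bear on a few counts, because use of strand in the authors' counting is not given in the sources used here. Bid (chromosome 6, 120891930 to 120916853, minus strand) overlaps Bcl2l13 on the opposite strand and 2 smaller genes. Of these smaller genes Gm44260 lies on the same strand as Bid. Bcl2l13 had 0.51 ± 0.13 in Oct4-KO late ICMs where Bid fell. Bad overlaps Gpr137, Bak1 overlaps Ggnbp1, Bik overlaps Gm46495, and Bax overlaps Gm45808 on its own strand. Bcl2l1, Mcl1, Bcl2l11 (chromosome 2, 128126038 to 128162547, plus strand), Bmf (chromosome 2, 118528757 to 118549687, minus strand) and Bok (chromosome 1, 93685660 to 93695764, plus strand) overlap no annotated gene in GENCODE vM21.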

How the data were processed

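The authors sequenced 3′ RNA-seq libraries with unique molecular identifiers (UMIs) from single embryos, trimmed reads with Cutadapt, aligned them with TopHat2 to mm10 (GENCODE vM23), and counted UMIs per gene with UMI-tools, featureCounts and TRUmiCount. The deposited table holds these UMI counts for every embryo and was used as it stands. A deposited table of regularised log values was not used. Groups came from the sample labels.

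Counts were tested with edgeR 4.0.16 (quasi-likelihood test, TMM, R 4.3.3, limma 3.58.1) and Benjamini-Hochberg adjustment, with 1 coefficient per group. KO, stage and difference comparisons used the 96 Ctrl and KO embryos (14053 genes), and MWT comparisons all embryos (13923 genes). SE is the absolute log2 fold change over the root of F. Alternatives were DESeq2 1.42.0, scaling by totals, no filter, thinning to 525755 UMIs, added MWT embryos, blocks and left-out embryos. The test was also run on counts simulated from the fitted means and dispersions, and the outcome is not reported here. The members and lists were chosen with earlier results of these data known. The named genes are the members and, per list and KO comparison, the lowest and highest called, and others named in counts of 5 or fewer were chosen after their values were seen. Replicates are single embryos, litters are not given in the sources used here, and the intervals of UMI ratios cover counting error only. The intervals of a difference between effects were built from the SE. A few genes that the rules would name are not reported here.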

Additional observations from a re-analysis of the deposited data

Results flagged for a closer look

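In each group of 5 to 8 embryos, the highest or lowest embryo was set against the gap that Dixon's test allows. Of 152 member-by-group sets with a range above 0, 21 held an outlying embryo. Chance gives about 1 in 20 for normally distributed values, and whether CPM levels follow that rate was not tested. The rate does not apply to the sets of Bik and Bak1 in which most embryos have no UMI.

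For the members called after loss of Oct4 or Sox2, these were Bcl2l11 in Oct4 KO morula 6 (82.5 CPM, the others 22.0 to 48.3) and in Sox2 KO early ICM 10 (31.2 CPM, the others 13.1 to 19.7), and Bmf in Oct4 KO late ICM 2-7 (6.36 CPM from 5 UMIs, the others 0 to 2.47). For Bok they were Oct4 MWT morula 3 (348 CPM, the others 176 to 250), Oct4 MWT early ICM 8 (85.2 CPM, the others 25.7 to 42.0), Sox2 KO early ICM 2 (77.7 CPM, the others 22.1 to 48.3), Sox2 KO late ICM 1-5 (116.0 CPM, the others 12.1 to 37.4) and Sox2 Ctrl late ICM 2-1, the low one (7.06 CPM, the others 29.7 to 47.4).

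Among the other members, Bcl2l1 stood apart in Sox2 Ctrl morula 12 (20.9 CPM, the others 9.38 to 13.3), Bad in Oct4 Ctrl late ICM 1-3 (75.0 CPM, the others 46.2 to 59.0) and Bax in Oct4 MWT morula 10 (30.2 CPM, the others 12.3 to 18.6). The remaining ones rested on 1 to 7 UMIs. For Bik they were Oct4 KO morula 5 (1.15 CPM), Oct4 Ctrl late ICM 2-4 (5.10 CPM), Sox2 Ctrl early ICM 11 (2.19 CPM) and Sox2 KO early ICM 8 (1.21 CPM). For Bak1 they were Oct4 KO morula 2 (2.07 CPM), Oct4 KO early ICM 5 (8.19 CPM), Oct4 Ctrl late ICM 1-4 (8.09 CPM), Oct4 KO late ICM 1-7 (6.21 CPM), Sox2 Ctrl morula 17 (1.04 CPM) and Sox2 KO morula 15 (0.945 CPM).

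Of 63 tests of a difference between effects, 1 passed the adjusted p in edgeR's quasi-likelihood test: the Oct4 effect on Mcl1 in early ICMs minus that in morulae, at -0.50 on the log2 scale. With thinned counts its adjusted p was 0.112.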

How the results depend on the processing

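No called value changed its sign under any alternative run for it. In Oct4-KO early ICMs the count of called members went from 0 to 1 (Bid) with DESeq2, with the MWT embryos in the fit and with scaling by totals, and was 0 to 1 over the left-out embryos, 1 without Ctrl 1, 3 or 8 or KO 5 or 17. In Sox2-KO early ICMs it went from 1 to 0 (Bmf) with thinned counts. In Sox2-KO late ICMs it was 1 (Bcl2l11) at adjusted p alone and 0 to 1 over the left-out embryos, 1 without Ctrl 1-10 (1.12) or KO 2-3 (1.01). From early to late ICM in Oct4 Ctrl it went from 2 to 1 with thinned counts and without the filter, where Bmf was lost. At adjusted p alone 1 member differed in the Oct4 effect between morulae and early ICMs, and 2 were past it in Sox2 MWT early ICMs. DESeq2 called 1 member each in the Oct4 effect between early and late ICMs and in the Sox2 effect between morulae and early ICMs. The cause was not tested. To keep the number of refits low, embryos were left out in turn only for the 3 Oct4-KO comparisons, Sox2-KO early and late ICMs and Oct4 MWT early ICMs, so the calls between stages, of Bok in Oct4 MWT late ICMs and of Bcl2l11 in Sox2 MWT early ICMs have no such check.

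Some Ctrl and KO embryos share a number, and the correlations of their deviations ran from -0.077 to 0.229, so the numbers were not taken as pairs. With the replicate block on these numbers (26 embryos, 9 residual degrees of freedom) Sox2-KO early ICMs had 0 calls (Bmf -1.73, adjusted p 0.239) and late ICMs 1 (Bcl2l11 1.36, adjusted p 0.0298). The same embryos without a block, an alternative chosen after seeing the data, gave 0 calls in Sox2-KO early ICMs (Bmf -1.68, adjusted p 0.251) and 0 in late ICMs.

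Members that were not called changed sign in 43 values, given here on the log2 scale. With thinned counts these were, for the Oct4 minus the Sox2 effect, Bax -0.22 and Bak1 0.38 in early ICMs and Bax 0.29 and Bcl2l11 -0.07 in morulae. They were also Bax 0.10 in Oct4-KO morulae, Bcl2l1 0.24 and Mcl1 -0.02 in Sox2-KO morulae, Bcl2l1 0.14 in Sox2-KO late ICMs, Bcl2l1 0.04 in Oct4 MWT early ICMs and Bak1 0.15 in Oct4 MWT morulae. For the Sox2 effect between stages they were Bad 0.17 and Bak1 -0.93 (early ICM minus morula) and Bad -0.05 (late minus early ICM). With scaling by totals they were Bcl2l1 -0.01 in Oct4-KO morulae, Mcl1 0.01 in Oct4 MWT late ICMs and Bad 0.06 in Sox2 Ctrl early ICMs minus morulae, where DESeq2 gave 0.03 and the fit with MWT embryos 0.01. That fit also gave Bad 0.02 for the Sox2 effect, early ICM minus morula.

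With the replicate block they were Bax -0.01, Bcl2l11 0.01 and Bak1 -1.03 in Oct4-KO early ICMs, Bcl2l1 -0.37 in Oct4-KO morulae, Bcl2l1 0.03 and Bok 0.35 in Sox2-KO early ICMs and Bcl2l1 0.06 in Sox2-KO late ICMs. The same embryos without a block gave Bcl2l11 0.07 and Bak1 -0.97 in Oct4-KO early ICMs, Bcl2l1 -0.35 in Oct4-KO morulae, Bcl2l1 0.05 and Bok 0.28 in Sox2-KO early ICMs and Bcl2l1 0.10 in Sox2-KO late ICMs. Over the left-out embryos Bak1 ran from -0.39 to 0.35 in Oct4-KO early ICMs, from -1.86 to 0.20 in Oct4-KO late ICMs and from -0.05 to 0.56 in Oct4 MWT early ICMs. Bax (-0.21 to 0.04) and Bcl2l1 (-0.03 to 0.15) crossed 0 in Oct4-KO morulae, as Bok did in Oct4 MWT early ICMs (-0.21 to 0.28) and in Sox2-KO late ICMs (-0.26 to 0.40).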
